A study of Mus musculus with 70 samples.

Results

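TRβ-HAB binding sites in the pituitary gland of untreated mice were described from the deposited list of 8051 sites, all of which were used. They are part of 14991 regions in the region lists examined here, the others being 5164 sites of untreated cerebral cortex and 1776 regions of T3-regulated open chromatin. Sites were mapped by chromatin affinity purification and sequencing (ChAP-seq), in which the biotinylated receptor is captured on streptavidin beads together with the chromatin it binds. HAB;BirA mice (*Thrb* HAB/HAB; *Rosa26* BirA/BirA) carry a hemagglutinin and biotinylation tag at the C terminus of the endogenous TRβ protein, which tags TRβ1 and TRβ2 alike, and a *Rosa26* allele that expresses the biotin ligase BirA. BirA control mice (*Rosa26* BirA/BirA) carry the ligase without the tagged receptor, so both groups share the BirA allele. All were adult, euthyroid and male, and each library came from a pool of 12 whole pituitaries. The labels give the strain as C57BL/6J, whereas the methods describe a mixed background of 129/SvJ and C57BL/6J crossed to a BirA line on FVB/N. The genotype label of the 3 control libraries names the HAB genotype, and their titles name BirA; they were grouped by title.

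There were 3 HAB;BirA and 3 BirA libraries, which the authors merged by genotype before calling sites. The list gives the reads of the merged libraries in each site, so there is no error between replicates. The intervals given for reads and shares of sites are 95% intervals (exact Poisson for reads, Wilson for shares), and they cover counting error only, since reads that carry no molecular identifier may repeat a molecule. For comparison, RNA-seq was available from pools of 3 whole pituitaries of adult male C57BL/6J mice that were hypothyroid or hyperthyroid. There were 4 wild-type libraries and 5 libraries labelled *Thrb*-KO in each condition. Hypothyroid mice received MMI, an inhibitor of thyroid hormone synthesis, and, per the methods, potassium perchlorate in the drinking water. Hyperthyroid mice received the same, with T3, the active hormone, added in the final week. T3-regulated open chromatin came from ATAC-seq of hypothyroid and hyperthyroid mice, in nuclei tagged by *Rosa26* Sun1-GFP under a Cre driver at the *Thrb* b2 exon, and its list gives no direction of change. In whole tissue, fewer cells of a type and less RNA per cell cannot be told apart.

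The anterior pituitary secretes growth hormone, prolactin, thyrotropin, gonadotropins and corticotropin, and thyroid hormone feeds back on it to restrain thyrotropin. TRβ, encoded by *Thrb*, is a nuclear receptor that binds DNA with or without T3, often as a heterodimer with a retinoid X receptor. Its best known response element is a direct repeat of the hexamer AGGTCA with a spacer of 4 bases, called DR4. Corepressors associate with the unliganded receptor, and T3 exchanges them for coactivators.

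The sequences below show, for sites that the results turn on, how close the best DR4 match comes to the searched letters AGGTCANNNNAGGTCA. Each is a stretch of 100 bases of mm9, written 5′ to 3′ on the strand of the repeat, with both half-sites in capitals. Differences from the searched letters are counted from 1 at the first base of the first half-site. The *Uck2* and *Nmral1* sequences were chosen, after the values were seen, from the 29 sites with a repeat without mismatch in the 300 bases around their midpoint. The *Pou1f1* sequence is from a site of 28 reads, taken because it had the fewest mismatches in its cluster. The strongest site of that cluster, of 80 reads, had a best match with 3 mismatches.
*Uck2*, intron, chr1:169170676-169170775, minus strand, no difference: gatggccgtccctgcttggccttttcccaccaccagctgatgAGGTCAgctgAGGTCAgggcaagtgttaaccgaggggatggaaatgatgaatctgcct
*Nmral1*, intron, chr16:4702783-4702882, plus strand, no difference: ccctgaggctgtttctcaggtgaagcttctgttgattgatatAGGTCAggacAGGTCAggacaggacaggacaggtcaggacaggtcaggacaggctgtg
*Cacna1d*, intron, chr14:31018145-31018244, plus strand, A1G: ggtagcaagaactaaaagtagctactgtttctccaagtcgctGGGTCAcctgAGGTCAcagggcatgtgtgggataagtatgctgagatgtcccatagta
*Ceacam16*, intergenic, chr7:20449741-20449840, minus strand, C5G: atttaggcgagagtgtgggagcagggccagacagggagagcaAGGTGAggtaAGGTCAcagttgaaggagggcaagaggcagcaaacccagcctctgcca
*Capza3*, intergenic, chr6:140096555-140096654, plus strand, T14A: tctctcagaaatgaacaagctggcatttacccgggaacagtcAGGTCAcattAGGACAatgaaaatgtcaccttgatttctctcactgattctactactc
*Irf2bp2*, intergenic, chr8:129259813-129259912, plus strand, T4G and T14C: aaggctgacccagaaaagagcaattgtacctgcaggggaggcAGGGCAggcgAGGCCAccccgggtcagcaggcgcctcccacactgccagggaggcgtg
*Pou1f1*, intergenic, chr16:65510713-65510812, minus strand, G3T and G13T: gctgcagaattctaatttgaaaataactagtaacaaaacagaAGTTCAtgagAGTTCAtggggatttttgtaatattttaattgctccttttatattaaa
*Gh*, intergenic, chr11:106177942-106178041, plus strand, G2T: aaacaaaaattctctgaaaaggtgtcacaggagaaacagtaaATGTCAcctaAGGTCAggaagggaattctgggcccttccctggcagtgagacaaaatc
*Dot1l*, transcription start, chr10:80217707-80217806, plus strand, T4G, T14A and A16G: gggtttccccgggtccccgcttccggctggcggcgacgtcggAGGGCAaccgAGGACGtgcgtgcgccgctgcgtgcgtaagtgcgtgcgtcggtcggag
The intergenic sites are named for the protein-coding gene with the nearest transcription start, except the *Gh* site, the strongest within 20 kb of that gene, which lies closer to *Cd79b*. Its repeat is outside the central 300 bases of the site, where the best match had 4 mismatches, and the sites 5822 bp upstream and at the start of *Gh* had best matches with 3 and 4. The fourth base of a half-site, T in the searched letters, differed in several of these sequences, and the same held over all sites: in the 1620 sites with a match in their central 300 bases, T was kept in 76.36% at position 4 and in 61.98% at position 14, against 96.6% for G at position 12.

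The reads of the merged HAB;BirA libraries spread over a narrow range in most sites. From the lower to the upper quartile a site held 13 to 27 reads, 10% of sites held 44 or more, and 100 sites held 100 or more once 4 rows were set apart. Control reads stayed at 5 or fewer in 92.56% of sites. The set-apart rows had over 100 control reads or fewer than 2 HAB;BirA reads per control read. They were 3 wide intervals over coding exons of *Sfi1* on chromosome 11 and an interval of 174 against 92 reads nearest *Ighv1-73*, an immunoglobulin heavy chain segment. They hold the ranks 1, 2, 3 and 13 by reads in the list and were kept in shares of all sites, but were left out when strongest sites were named. The fold in the list equals the ratio of reads divided by a constant of 1.198, and ratios called scaled below were divided by it as well. The origin of this constant is not given in the sources used here, and it is not the ratio of the mapped reads listed for these libraries, so scaled ratios are comparable between sites but their level depends on it.

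**Figure D1:**
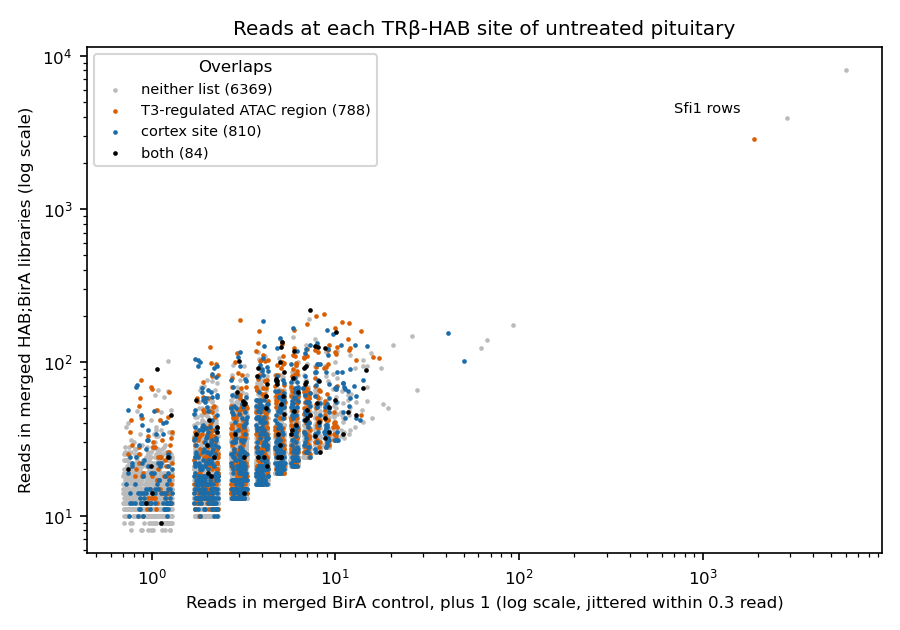
Reads of the merged HAB;BirA libraries (y axis, log scale) against reads of the merged BirA control plus 1 (x axis, log scale, points jittered within 0.3 read) for each of the 8051 sites, coloured by overlap with a T3-regulated ATAC region (788 sites), a cortex site (810), both (84) or neither (6369). The 3 *Sfi1* rows lie apart at the upper right, and 92.56% of sites have 5 control reads or fewer.

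The strongest site lay 142365 bp upstream of *Irf2bp2*, which encodes an interferon regulatory factor binding protein that acts as a corepressor. At chr8:129259701-129260200 it held 218 reads (190 to 249) against 6 control reads (2.2 to 13.1), a scaled ratio of 30.3 with an exact interval of 13.7 to 83.5. It overlapped both a T3-regulated ATAC region and a cortex site, and it is the site whose repeat carries T4G and T14C above. Next came an intron of *Arhgap26*, a GTPase-activating protein gene, with 206 against 8 reads. A site 14709 bp upstream of *1110008E08Rik*, a gene of unassigned function, held 200 against 7. An intron of *Zfp831*, a zinc finger gene, held 190 against 6. The counting intervals of these leading sites overlap, so their order is not resolved.

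A site in an intron of *5330417C22Rik* held 187 reads (161 to 216) against only 2 control reads, a scaled ratio of 78.0 with a wide interval of 21.3 to 649. The start of *Dot1l*, which encodes the histone H3 lysine 79 methyltransferase, held 186 (160 to 215) against 3. Its interval overlaps that of the *Irf2bp2* site. An intron of *Lass6*, a ceramide synthase gene, held 184 against 10, and an intergenic site 106055 bp from *Capza3*, an actin capping subunit of germ cells, held 179 against 11. A site 2803 bp upstream of *Ceacam16*, which encodes a protein of the tectorial membrane of the ear, held 168 against 9. Distance from the nearest start did not set these sites apart: 162 against 5 reads lay 41964 bp upstream of *Nnat*, an imprinted membrane protein gene, and 178 against 6 lay 45062 bp upstream of *Dync1h1*, the dynein heavy chain gene. The 20 strongest sites ran from 218 down to 145 reads, the last being 45382 bp upstream of *Bdkrb2*, a bradykinin receptor gene.

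Control reads differed widely among sites of like strength. The *Hr* site, in the gene of the corepressor Hairless, held 154 reads but also 40 control reads, a scaled ratio of 3.21, and the site in *1600014C10Rik* held 149 against 25. By comparison an intron of *Trpm3*, a cation channel gene, held 160 against 3 and the start region of *Nr1d2*, the clock repressor REV-ERBβ, held 166 against 5. Across the 8047 sites other than those set apart, HAB;BirA reads had a Spearman correlation of 0.635 with control reads and of 0.628 with the width of the site. These points share the same merged libraries, and SICER joins adjacent windows, so wider sites collect more reads.

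A cut at 1 kb from a start divided the 20 strongest sites into a distal and a start-linked kind. Of the 17 that lay more than 1 kb from a start, 12 overlapped a T3-regulated ATAC region and 4 a cortex site. The other 3, at *Dot1l*, *Nr1d2* and *Suv420h2*, a histone H4 lysine 20 methyltransferase gene, all overlapped a cortex site and none an ATAC region. So did the sites of *Hivep2* and *Hr*, which lay just beyond the cut, 1035 and 1144 bp from a start, and were counted as distal. The 806 strong sites, the 10% with most reads, showed the same split with more members. Of 159 strong sites within 1 kb of a start, 72.3% overlapped a cortex site and 4.40% an ATAC region. Of 647 distal strong sites, 19.2% overlapped a cortex site and 41.1% an ATAC region. The ATAC and cortex lists differ in the same way on their own, as 5.91% of the ATAC regions and 37.6% of the cortex sites lay within 1 kb of a start, against 21.98% of the pituitary sites.

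Sites with more reads more often held the repeat and more often overlapped the other lists. For an equal length at every site the DR4 search (both strands, at most 2 mismatches in the 12 half-site letters) was run in a window of 300 bases around the midpoint. It matched 30.4% of the strong sites (27.3 to 33.7) and 14.2% of the 10% with fewest reads (11.9 to 16.7), against 3.89% of windows of the same size 10 kb away. Over the whole width of each strong site the share was 36.4%. Overlap with a T3-regulated ATAC region fell from 33.9% in the strong sites (30.7 to 37.2) to 2.73% in the 10% with fewest reads (1.81 to 4.1), and overlap with a cortex site from 29.7% to 3.60%. The share within 1 kb of a start had no such slope. It was 19.7% in the strong sites, 27.2% in the fourth group of 10% and 19.4% in the last. Median width fell from 450 to 150 bp from the first to the last group of 10%, which moves with the chance of any overlap, and its part in these shares was not tested.

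**Figure D2:**
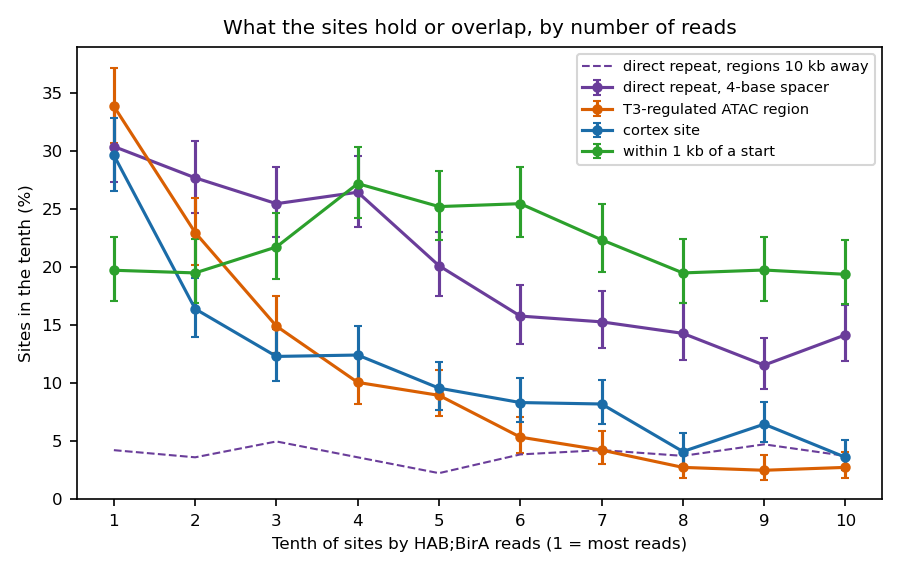
Share of sites (y axis, %) in each group of 10% of the list by HAB;BirA reads (x axis, 1 = most reads; 805 or 806 sites each) that held a DR4 match in their central 300 bases, overlapped a T3-regulated ATAC region, overlapped a cortex site or lay within 1 kb of a start. Bars are 95% Wilson intervals and the dashed line is the DR4 share of windows 10 kb away; the ATAC share falls from 33.9% to 2.73% while the share near starts stays between 19.4% and 27.2%.

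The quality of the repeat ran with ATAC overlap, whereas cortex overlap differed mainly at the ends of the range. Among the 29 sites with a perfect DR4, 34.5% overlapped an ATAC region and 0 a cortex site. That count allows a share of up to 10.3% by an approximate bound, not a Wilson interval. With 1 mismatch (273 sites) the shares were 29.7% and 6.59%, and with 2 (1318 sites) 22.4% and 10.3%. With 3 (2690 sites) they were 11.9% and 11.3%, and with 4 (3128 sites) 4.86% and 11.2%. Median reads fell from 23 without a mismatch to 14 with 5, and their part in these shares was not tested. Among 609 sites whose best match had 5 mismatches, 2.46% overlapped an ATAC region and 14.0% a cortex site, and 36.8% lay near a start. Perfect repeats were 0.360% of sites against 0.0248% of windows 10 kb away. Of the 29, 6 were among the strong sites and none among the 100 sites with 100 or more reads. The largest held 68 reads, in the locus of *Uck2*, a uridine-cytidine kinase gene, and the smallest held 11.

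Other letters were also commoner in sites than 10 kb away, by smaller margins. The half-site AGGTCA alone was in 33.03% of sites against 18.3%, and the extended half-site TAAGGTCA in 2.17% against 0.907%. The everted repeat TGACCTNNNNNNAGGTCA was found in 3.18% against 1.44% and the inverted repeat AGGTCATGACCT in 2.43% against 1.22%, with up to 2 mismatches as for DR4. These searches covered both strands, and the half-site lies inside all of the longer ones. The AP-1 letters TGANTCA were in 13.0% against 9.24%. The letters TAATCC of PITX factors were in 11.6% against 11.2%, and ATGNATA, used for the pituitary factor POU1F1, in 13.2% against 15.7%. Sites had a median GC of 51.2% against 45.4%, and its part in these shares was not tested. A DR4 match lay a median of 41 bases from the midpoint of its site, and 88.0% lay within 100 bases.

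Most sites stood alone: at a largest gap of 10 kb, 77.2% had no neighbour, and 39 clusters of 4 or more sites held 209 sites. The largest lay across *1600014C10Rik* on chromosome 7, with 20 sites in 25000 bp that held 966 reads against 151 control reads, 1 cortex overlap and no ATAC overlap. The second covered *Itln1* and *Cd244*, genes of an intestinal lectin and a natural killer cell receptor, with 13 sites and 353 against 80 reads. The cluster nearest *Ighv1-73* held 584 against 265 reads. These 3 had 6.40, 4.41 and 2.20 HAB;BirA reads per control read, without scaling. The same unscaled ratio was 25.5 in the *Klf9* cluster, 15.6 in the *Pou1f1* cluster and 14.6 in the *Foxo6* cluster.

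The densest cluster of sites with low control lay upstream of *Klf9*, a Krüppel-like factor gene long known to respond to T3. Its 5 sites within 3450 bp, 4416 to 7416 bp upstream of the start, held 41, 60, 108, 103 and 20 reads against 3, 4, 2, 1 and 3 control reads. All 5 overlapped cortex sites, and the 60-read site also overlapped an ATAC region. The cluster upstream of *Pou1f1*, which encodes the POU factor that specifies somatotrophs, lactotrophs and thyrotrophs, held 39, 28, 80 and 24 reads against 5, 1, 3 and 2. None of its sites overlapped a cortex site or an ATAC region. *Foxo6*, a forkhead factor gene of the insulin pathway, had 7 sites within 20 kb, of which the intronic pair of 66 and 101 reads overlapped ATAC regions and 2 flanking sites of 13 and 24 reads overlapped cortex sites.

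Other genes held many sites spread over introns and flanks. *Cacna1d*, the L-type calcium channel gene, had 8 sites, of which 3 were strong (130 reads, with A1G, 58 and 52), and no cortex overlap. *Slc25a33*, a mitochondrial pyrimidine nucleotide carrier gene, had 8, of which only the intronic site of 75 reads was strong, and an 18-read site nearby was among those with a perfect repeat. Counts of sites per gene partly follow length, since 20.1% of genes under 10 kb and 62.0% of genes over 200 kb had a site within 20 kb. The 62 sites assigned to *Gm20388* lie in an annotated span of 4434882 bp that contains many other genes.

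**Figure D3:**
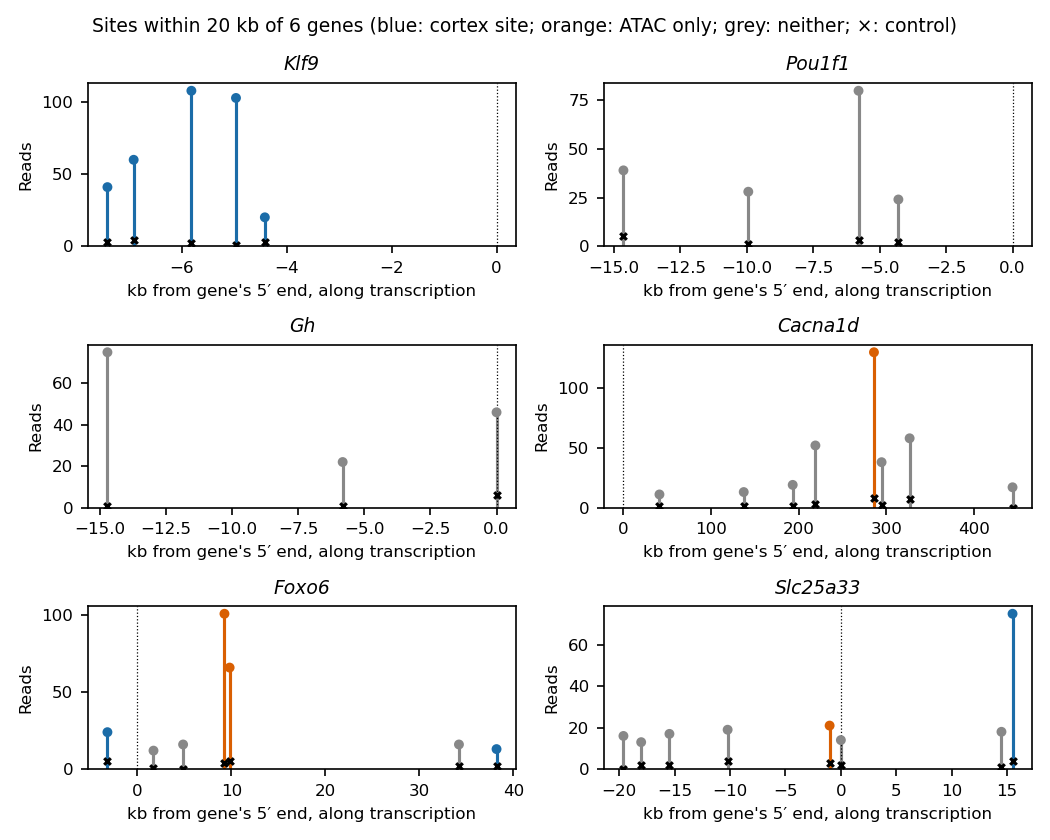
Reads (y axis) of each site within 20 kb of *Klf9*, *Pou1f1*, *Gh*, *Cacna1d*, *Foxo6* and *Slc25a33* by distance from the 5′ end of the gene along the direction of transcription (x axis, kb). Stems are HAB;BirA reads, blue where the site overlaps a cortex site, orange where it overlaps an ATAC region only and grey where it overlaps neither, and crosses are control reads; all 5 *Klf9* sites are blue, whereas the sites of *Pou1f1*, *Gh* and *Cacna1d* include none.

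Of 22208 protein-coding genes, 6614 (29.8%) had a site within 20 kb and 856 (3.85%) had a strong site. The gene lists that follow were chosen with results of these data known, so their shares are descriptions. The same measure with the 5164 cortex sites gave 25.6% of all genes.

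Some genes that define pituitary cells had a site in the pituitary, and hardly any had one in cortex. Their pituitary shares stand beside 29.8% of all genes and 41.6% of the genes tested for RNA below. Of the 7 hormone genes, 4 had a site in pituitary and none in cortex. *Gh*, growth hormone, had 3, with 46 reads against 6 control reads at its start, 22 against 1 at 5822 bp upstream and 75 against 1 at 14722 bp upstream. *Prl*, prolactin, had a site of 15 against 1 reads 889 bp upstream. *Lhb* and *Fshb*, the gonadotropin β subunits, had sites of 17 and 13 reads at 12.0 and 11.2 kb. *Tshb* and *Cga*, the thyrotropin subunits, and *Pomc*, the corticotropin precursor, had none within 20 kb, and their nearest sites lay 392, 206 and 64.9 kb away. The site at the *Gh* start lies in a gene whose RNA was at 48332 to 159094 CPM in the libraries described below.

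Of 27 lineage transcription factor genes, 40.7% had a pituitary site and none had a cortex site. *Pou1f1* led, followed by *Lhx3*, a LIM factor of early pituitary development, and *Neurod4*, a basic helix-loop-helix factor, whose intronic site held 50 reads against 5. Of 17 receptors for hypothalamic and feedback signals, 41.2% had a pituitary site and 5.88% a cortex site. Both pituitary shares are close to the 41.6% of genes tested for RNA. *Esr1*, the estrogen receptor gene, led that list with 8 sites of up to 80 reads. By contrast, no gene of the stem and folliculostellate list (14 genes) had a site, and 1 of 18 endothelial, immune and stromal markers did. Olfactory and vomeronasal receptors had a site in 2.15% of 1440 genes.

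Thyroid hormone signalling genes are given by role, in small lists, beside the 29.8% of all genes with a site. Of the 5 receptor genes, *Thra*, *Thrb*, *Rxra* and *Rxrb* had sites, and the site nearest *Rxrg* was 36.3 kb away. The 5 sites of *Thra* are also counted for its neighbour *Nr1d1*, which it overlaps at the 3′ end. The site of 23 reads lies in an intron of *Thra*, with a *Thra* start as the nearest. *Thrb* itself had 3 intronic sites of 57, 28 and 13 reads against 4, 2 and 1, and the first overlapped an ATAC region. Of 11 transport and deiodination genes, 18.2% had a site, namely *Ttr*, the thyroxine carrier transthyretin, with 44 against 3 reads, and *Slc7a5*, an amino acid transporter that also carries thyroid hormone, with 15 against 2. *Dio2*, the activating deiodinase, had its nearest site at 157 kb. Coregulators had a site in 58.8% of 17 genes.

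**Figure D4:**
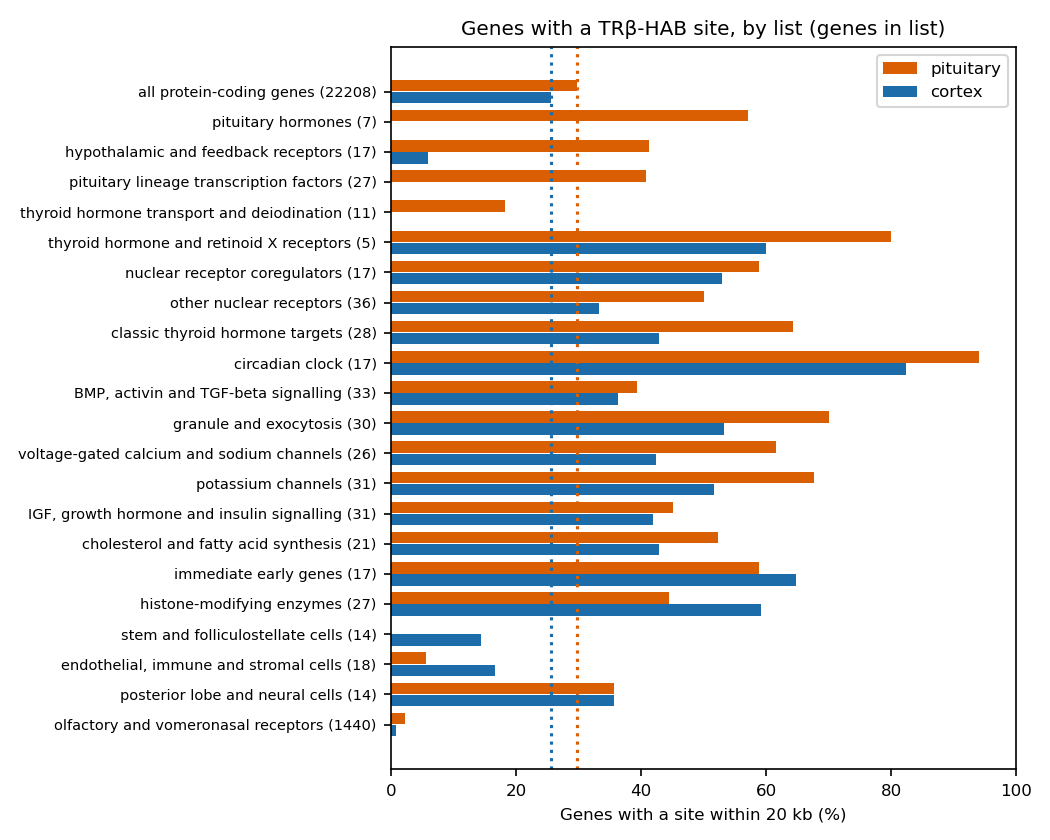
Share of genes in each list (y axis, number of genes in brackets) with a TRβ-HAB site within 20 kb (x axis, %) in pituitary and in cortex, with dotted lines at the share of all genes (29.8% and 25.6%). Hormone and lineage factor genes have pituitary sites only (57.1% and 40.7%), and clock genes have the highest share in both tissues (94.1% and 82.4%).

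Circadian clock genes had the highest share in both tissues, 94.1% of 17 in pituitary and 82.4% in cortex, with *Cry1* the gene without a pituitary site. *Rora*, a nuclear receptor that activates clock genes, had 7 sites of up to 118 reads, and *Nr1d1* and *Nr1d2*, its repressing counterparts, had 5 sites and 1. *Dbp*, a clock output factor, had 3 sites of 73, 39 and 14 reads. Of 28 classic thyroid hormone targets 64.3% had a site, led by *Klf9* and *Hr*. Shares were 70.0% for granule and exocytosis genes such as *Syt7*, a calcium sensor of secretion, and 67.7% for potassium channels. They were 61.5% for calcium and sodium channels and 52.4% for cholesterol and fatty acid synthesis. Several of these lists hold long genes, which more often had a site.

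The RNA of genes with sites was then compared between hypothyroid and hyperthyroid pituitaries. Values are reads scaled to a common library total (CPM). Genes were tested with limma on log2(CPM + 1), so that fold changes of low genes are understated, and a gene counted as called when its p, adjusted by Benjamini and Hochberg, was under 0.05 and its change at least 1.5-fold. Of 13145 tested genes 3.87% were higher and 5.59% lower with T3 in wild type. In the libraries labelled *Thrb*-KO 0.411% were higher and 0.601% lower, and the difference of the responses (interaction) was higher in wild type for 1.78% and lower for 2.48%. The balance of directions depended on the tool: DESeq2 called 756 genes higher and 683 lower in wild type, against 509 and 735, and the interaction higher for 384 and lower for 348, against 234 and 326. *Thrb* RNA itself was not reduced in the libraries labelled *Thrb*-KO (mean 271 CPM, SD 20.1, n = 5, hypothyroid, against 257, SD 27.3, n = 4, in wild type). The value counts a whole transcript and may include parts outside the deletion, which the sources used here do not describe, so it does not check the label, and the libraries are called by their label throughout. The libraries also fell into 2 sets by *Lars2*, a mitochondrial leucyl-tRNA synthetase gene, at 2571 to 3420 CPM in replicates 1 and 2 of every group and 53.2 to 95.1 CPM in replicates 3 to 5. Nothing in the sources used here says that replicates came from separate groups of animals beyond the pools, and the p-values measure the spread between these pools.

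The share of genes that were higher rose with the number and strength of their sites, and the share that were lower did not. Among 7350 tested genes without a site 1.73% were higher. Among those with 1 site (3474) it was 4.66%, with 2 (1090) 9.27%, with 3 or more (664) 14.9%, and with a strong site (701) 22.7%. Genes lower with T3 were 6.03%, 5.04%, 5.14%, 5.87% and 3.71% of the same groups. Where a site overlapped an ATAC region (540 genes), 26.3% were higher, against 4.69% of 4688 genes whose sites did not.

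The pattern was present at every gene length. In bands from under 10 kb to over 100 kb, 1.24% to 1.92% of genes without a site and 20.6% to 25.2% of genes with a strong site were higher. It was also present within both library sets, where 24.1% (replicates 1 and 2) and 23.0% (replicates 3 to 5) of genes with a strong site were higher. Read the other way, 74.0% of the 489 higher genes had a site and 32.5% a strong site, against 40.4% and 4.54% of 11376 genes that were not called. For the 713 lower genes the shares were 37.9% and 3.65%. Of 9630 genes that were not tested, being too low or not matched to the RNA table, 14.4% had a site, and their median length was 5.98 kb against 25.5 kb of tested genes. In the libraries labelled *Thrb*-KO, 3.42% of genes with a strong site were higher and 0.143% lower, and the interaction was higher in wild type for 9.99%.

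**Figure D5:**
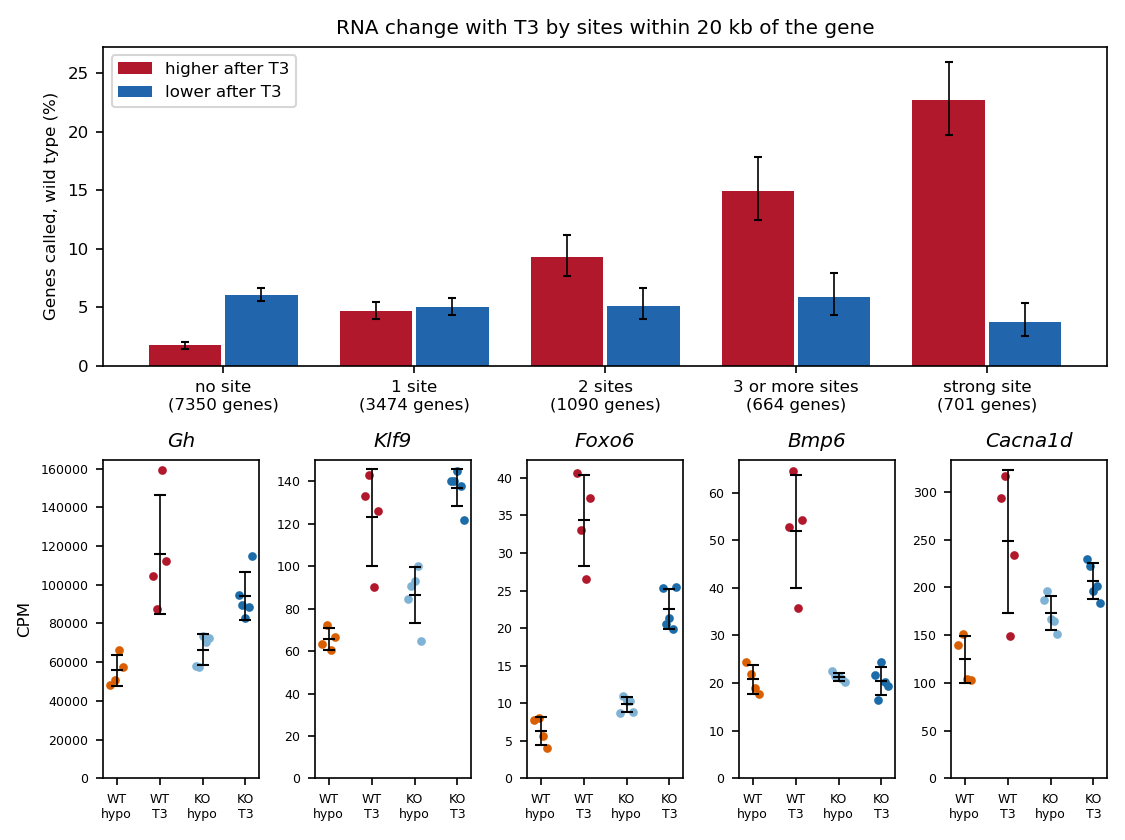
Top, share of tested genes (y axis, %) called higher (red) or lower (blue) with T3 in wild type by sites within 20 kb (x axis; a gene with a strong site is also in a class by number), with 95% Wilson intervals; the share higher rises from 1.73% without a site to 22.7% with a strong site. Bottom, CPM of *Gh*, *Klf9*, *Foxo6*, *Bmp6* and *Cacna1d* in each library (points), with mean and SD, in hypothyroid (hypo) and hyperthyroid (T3) wild type (WT, n = 4) and libraries labelled *Thrb*-KO (KO, n = 5); *Bmp6* is higher with T3 in WT only.

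*Gh* and *Prl* rose with T3 in wild type. *Gh* was at 48332, 51022, 66226 and 57732 CPM in hypothyroid and 104306, 87356, 159094 and 112135 CPM in hyperthyroid libraries, without overlap (log2 fold change 1.03, SE 0.21, limma adjusted p = 0.0017). In the libraries labelled *Thrb*-KO it changed by 0.50 on the log2 scale (adjusted p = 0.337), and the difference of the responses was not called (adjusted p = 0.447). *Prl* rose by 1.70 (adjusted p = 0.000491) and, unlike *Gh*, was also called higher in the libraries labelled *Thrb*-KO. Without the filter on low values both wild-type fold changes stayed at 1.03 and 1.70, and both calls were lost (adjusted p = 0.972 and 0.152). In that setting *Prl* rose by 1.63 in the libraries labelled *Thrb*-KO, also without a call (adjusted p = 0.426). *Tshb* and *Cga*, without a site within 20 kb, fell by 4.95 and 2.55 on the log2 scale. Of the 3 tested hormone genes without a site, 2 were also called lower in the libraries labelled *Thrb*-KO.

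Among the clustered loci *Klf9*, *Foxo6* and *Slc25a33* rose and *Pou1f1* was not called. *Klf9* was at 63.2, 72.5, 60.5 and 66.7 CPM in hypothyroid and 133, 143, 90.3 and 126 CPM in hyperthyroid wild type (log2 0.88, adjusted p = 9.95e-05), and it rose by 0.67 in the libraries labelled *Thrb*-KO, a value of 0.57 and under 1.5-fold without their hypothyroid replicate 5. *Foxo6* went from 7.73, 7.99, 5.62 and 4.02 to 40.6, 33.0, 26.6 and 37.3 CPM (log2 2.29, adjusted p = 8.95e-09), and its rise was larger than in the libraries labelled *Thrb*-KO (1.12, interaction adjusted p = 0.00272). *Slc25a33* rose by 1.40 (adjusted p = 0.00023). *Pou1f1* changed by -0.07 (SE 0.18, adjusted p = 0.86). Of 42 tested genes nearest to the clusters 11 were higher and 4 lower. Beside them, 6.92% were higher and 5.16% lower of the 5228 tested genes with a site. Of the 664 with 3 or more sites, a class closer to the clusters, 14.9% were higher and 5.87% lower. Whether clustering adds to the number of sites was not tested.

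Several genes with intronic or flanking sites rose in wild type more than in the libraries labelled *Thrb*-KO. *Bmp6*, a bone morphogenetic protein gene, has an intronic site of 33 reads in an ATAC region. That site is 119356 bp from the 5′ end of *Bmp6*, and the nearest start is of *Txndc5*. *Bmp6* RNA went from 24.5, 22.0, 18.9 and 17.7 to 52.7, 64.5, 35.8 and 54.3 CPM (log2 1.26). It changed by -0.07 in the libraries labelled *Thrb*-KO (interaction adjusted p = 0.000326). *Id2*, a target of that pathway with a site 2694 bp upstream, rose by 1.07 against -0.11 (interaction adjusted p = 0.00252). *Neurod4* rose by 1.48 against 0.37 (interaction adjusted p = 0.00532) and *Cacna1a*, the P/Q-type calcium channel gene, by 1.00 against 0.21 (interaction adjusted p = 0.0019). The 3 *Cacna1a* sites lie 217838 to 244738 bp from its 5′ end, and the nearest start to each is of *Ier2*. The values set beside each other here are log2 changes in wild type and in the libraries labelled *Thrb*-KO, where none of these 4 genes was called.

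*Cacna1d* went from 140, 151, 104 and 103 to 293, 316, 149 and 234 CPM, with the lowest hyperthyroid library just below the highest hypothyroid library (log2 0.95, adjusted p = 0.000852). Its interaction had an adjusted p of 0.127, and 0.00896 with the replicate number as a block. *Hr* rose by 2.82 in wild type and 2.18 in the libraries labelled *Thrb*-KO. *Elovl5* and *Scd1*, enzymes of fatty acid elongation and desaturation, rose by 0.67 and 1.22 in wild type, with strongest sites of 94 and 81 reads that also overlapped cortex sites. *Akt2*, an insulin pathway kinase gene, rose by 1.01, and its site of 100 against 4 reads overlapped both a cortex site and an ATAC region. The *Scd1* interaction had an adjusted p of 0.0541, and 0.00599 with the block.

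Among genes near the strongest sites some rose, *Dot1l* was not called and *Arhgap26* fell. Over all tested genes with a strong site, 22.7% were higher and 3.71% lower. *5330417C22Rik* went from a mean of 424 to 793 CPM in wild type (log2 0.90, SE 0.09) and rose less in the libraries labelled *Thrb*-KO (0.15, interaction adjusted p = 0.000718). *Suv420h2* and *Lass6* rose by 0.93 and 0.82. The *Lass6* call was lost without hypothyroid replicate 3 or 4 or hyperthyroid replicate 1 or 2 (log2 0.63 to 0.75, adjusted p = 0.0883 to 0.114). Their interactions had adjusted p-values of 0.104 and 0.298, and 0.00884 and 0.00702 with the block. *Arhgap26*, with the second strongest of these sites, fell by 0.68 on the log2 scale (adjusted p = 0.000762), and by 0.54, under 1.5-fold, without hyperthyroid replicate 3. *Dot1l* was at 57.6, 57.0, 39.4 and 37.7 CPM in hypothyroid and 90.3, 82.7, 36.7 and 63.9 CPM in hyperthyroid wild type, groups that overlap through replicate 3. It changed by 0.45 (SE 0.21, adjusted p = 0.159) and was not called, and rose by 0.72 without that library (adjusted p = 0.00213). *Ceacam16* did not pass 1 CPM in every library and was not tested. It was at 0.371, 0.379, 0.253 and 0.218 CPM in hypothyroid and 16.9, 16.7, 14.7 and 16.4 CPM in hyperthyroid wild type, and at means of 0.436 and 4.18 CPM in the libraries labelled *Thrb*-KO. Neither pair of conditions overlapped. Away from the strongest sites, *Dos*, a gene in a cluster of 7 sites with at most 58 reads each, fell by 0.81. *Thrb*, with at most 57 reads in a site, fell by 1.32.

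By list, counts of genes with a site stand beside shares of 6.92% higher and 5.16% lower over all tested genes with a site. Of 13 classic targets with a site 7 were higher and none lower, with a median log2 change of 0.73 against -0.04 over all tested genes. Among lineage factors with a site *Neurod4*, *Six6* and *Lhx3* were higher and *Gata2* was lower. The calcium and sodium channel list had 3 of 16 higher (*Cacna1d*, *Cacna1a* and *Scn4a*, whose 4 sites include the 3 of its neighbour *Gh*), and fatty acid and cholesterol synthesis 4 of 11 (*Scd1*, *Acacb*, *Mlxipl* and *Elovl5*). The granule list differed, with 1 of 21 higher and 4 lower among genes with a site and 6 of 9 lower among those without. Clock genes, which had most sites, had 2 of 16 higher (*Bhlhe40* and *Dbp*) and 1 lower (*Nfil3*), and 10 coregulators with a site had none called, counts that are close to those shares. Genes in these brackets outside the naming rule were named after their values were seen.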

How the data were processed

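The deposited site list gives, per the file headers and methods, read counts per site in the merged HAB;BirA and merged BirA libraries, a p-value, a ratio (fold) scaled by the authors, and a false discovery rate (q-value; highest 8.1e-07). The submitters' notes name SICER 1.1, Bowtie2, MACS2, STAR and edgeR with build mm9. The authors called sites on merged libraries. Sites were ranked by HAB;BirA reads and set on mm9 with GENCODE M1 annotation. The ATAC list holds adjusted p-values deposited without direction; it and the cortex list were used by position (overlap of at least 1 bp). RNA values are CPM that the authors deposited per RefSeq transcript. Whole reads were recovered for 100% of values (tolerance 0.01), 21453548 to 55273748 per library. The transcript with the highest mean CPM was kept, and the 13145 genes that exceeded 1 CPM in each of 18 libraries were tested with limma 3.58.1 (R 4.3.3) on log2(CPM + 1), 4 groups in 1 model. edgeR 4.0.16 and DESeq2 1.42.0 were alternatives on whole reads.

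Named genes were those nearest the 20 strongest sites or the 10 largest clusters, all hormone, transport and receptor genes, up to 4 genes per other list by reads, and the 8 genes with most sites. The members and lists were chosen with earlier results of these data known. Of 415 list members 7 were not found in the annotation. The main model had no term for replicate number or library set, so its p-values are unpaired. In an alternative, replicate numbers were taken to pair the RNA samples as a block. Deviations from group means correlated for every number (r 0.255 to 0.815 in wild type, 0.386 to 0.668 in the libraries labelled *Thrb*-KO). For 4 of the 9 numbers the best correlation was with another number of the same *Lars2* library set, so shared sets and shared numbers were not told apart. Scripts were tested on simulated data. ChAP-seq of treated pituitaries and histone ChIP-seq were not analysed here, and some members of the lists are not reported here. Alternatives added after seeing the data were library sets as a block or alone, the 300-base window, and leaving out the set-apart rows or the 2 largest clusters.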

Additional observations from a re-analysis of the deposited data

Results flagged for a closer look

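In 3 of 128 groups of libraries (32 genes in 4 groups) a library stood apart from the others by Dixon's criterion, which chance alone meets in about 1 in 20 groups. They were *Pomc* in hyperthyroid *Thrb*-KO replicate 3 (5391 CPM), *Ttr* in hyperthyroid *Thrb*-KO replicate 1 (1.2 CPM) and *Hr* in hyperthyroid wild-type replicate 3 (125 CPM).

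The response to T3 differed between wild type and the libraries labelled *Thrb*-KO (limma interaction, Benjamini-Hochberg adjusted p under 0.05 and a difference of at least 1.5-fold) for 10 of the 32 genes. Over all 13145 tested genes it was higher in wild type for 1.78% and lower for 2.48%. *Elovl5* (0.53, adjusted p = 0.0132) and *Akt2* (0.52, adjusted p = 0.0365) passed on p alone. Wild type minus labelled *Thrb*-KO, the log2 difference was 1.17 for *Foxo6*, 1.12 for *Neurod4*, 0.79 for *Cacna1a*, 1.33 for *Bmp6*, 1.18 for *Id2*, 0.75 for *5330417C22Rik* and 0.68 for *Nnat*. It was -2.81 for *Dio2*, -1.26 for *Thrb* and -0.79 for *Dos*. All but *Dio2* have a site within 20 kb. Most of the 32 genes were named because of their sites, so this follows from the choice of genes and does not link sites to these differences. *Nnat* has a further site of 162 reads 41964 bp upstream.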

How the results depend on the processing

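No share or named gene's called fold change reversed sign under any alternative, but the balance of higher against lower genes turned. Against 509 higher and 735 lower in wild type and 234 and 326 for the interaction, TMM gave 616 and 657, and 300 and 287, edgeR 702 and 696, and 322 and 306, and DESeq2 756 and 683, and 384 and 348. The interaction also turned without hyperthyroid wild-type replicate 3 (373 and 325) and in replicates 1 and 2 alone (414 and 368). The share of strong sites with DR4 was 6.82% at 1 mismatch, 81.4% at 3 and 30.4% in the 300-base window, and of all sites 3.94% and 55.0% at 1 and 3. Ranked by reads per 100 bp, strong sites lay near a start in 15.0% and overlapped cortex in 25.8%. Their ATAC share was 39.7% at a false discovery rate of at most 1e-10, 40.9% in the top 5% and 29.4% when at least 50% of the site overlapped, and their cortex share 33.3% in the top 5% and 25.8% at that overlap. At it, all sites overlapped ATAC in 9.48% and cortex in 10.1%. Clusters numbered 17 at 5 kb and 90 at 20 kb. Genes with a site were 20.3% within 5 kb, 43.0% within 50 kb and 23.1% by nearest start. By adjusted p alone, 906 genes were higher and 1630 lower in wild type and 92 and 143 in the libraries labelled *Thrb*-KO, and 11.5% and 11.9% of genes with a site and 30.2% and 6.56% with a strong site. Genes with a site were higher in 8.15% with TMM, 8.95% with edgeR, 9.53% with DESeq2, 8.48% within 5 kb, 5.57% within 50 kb and 8.04% by nearest start, where 6.00% were lower. With DESeq2 27.0% of genes with a strong site were higher. Replicates 1 and 2 alone gave 119 lower in labelled *Thrb*-KO and 7.73% of genes with a site higher, and replicates 3 to 5 alone 6.91% lower. The cause was not tested.

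Leaving out each library gave 459 to 650 higher and 684 to 786 lower genes in wild type, 42 to 58 and 71 to 84 in labelled *Thrb*-KO, and 194 to 373 and 279 to 346 for the interaction. Genes with a site were 6.29% to 8.72% higher and 4.59% to 5.53% lower, and with a strong site 20.4% to 26.3% and 2.85% to 3.85%. With the replicate number as a block (pairing), 524 were higher and 770 lower in wild type, 66 and 98 in labelled *Thrb*-KO, and 334 and 419 for the interaction. The wild-type call was lost for *Lhx3* without hypothyroid replicate 1 or 2 or hyperthyroid 1 or 4 (lowest 0.48), for *Lass6* without hypothyroid 3 or 4 or hyperthyroid 1 or 2 (0.63) and for *Dbp* without replicate 2 or 4 of either condition (0.55). The interaction of *Nnat* kept its call in 9 of 28 settings and that of *Dos* in 16. Site reads come from merged libraries, so their replicate error is unknown.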
